A study of Mus musculus with 6 samples.

Results

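The Hox genes of 2 mouse cell lines were compared by cluster and by position within each cluster. Members were all rows of the gene table whose symbol was Hox, a cluster letter from a to d and a paralog number, which gave 40 rows with 39 symbols among 34724 genes. HoxA held 11 of these rows, HoxB 10, HoxC 9 and HoxD 10, because Hoxd4 was listed under 2 identifiers. RNA of 2H-11, described by the submitters as tumor endothelial cells, was sequenced in 3 libraries, and RNA of SVEC4-10, described as normal endothelial cells, in 3 others. Both lines were SV40-transformed endothelial lines from the axillary lymph node of adult C3H/HeJ mice, and no treatment was named for either. Each description belonged to a single line, so tumor origin and any other difference between the lines cannot be told apart. Libraries were made from total RNA with the Oxford Nanopore direct RNA kit, which reads RNA molecules without copying them into DNA.

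Hox genes encode homeodomain transcription factors that give cells of the body axis and limbs their positional identity. Their order along each cluster follows the order in which they are switched on in the embryo, with low-numbered genes active towards the head and high-numbered genes towards the tail, and genes with the same number in different clusters are called paralogs. Endothelial cells and fibroblasts of the adult keep Hox patterns that depend on the part of the body they come from. Hox proteins bind DNA together with TALE homeodomain cofactors of the Pbx, Meis and Pknox families, Polycomb complexes keep unused stretches of a cluster silent, and Trithorax complexes and retinoic acid act in the opposite direction.

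The libraries held 5375133, 4105369 and 5825968 counts in 2H-11 and 4278424, 3628400 and 16798666 counts in SVEC4-10. SVEC4-10 replicate 3 thus held 68.0% of that line's counts. Levels are given as CPM, each count scaled to its library total. The labels do not say whether the 3 libraries of a line were grown as separate cultures, so the p-values rest on library spread that could be technical alone. Of 18 pan-endothelial markers, 9 had no count in any library, Vwf, Erg, Tie1 and Cldn5 among them, and Pecam1 had a total of 1 count, in 2H-11. The 18 summed to between 59.0 and 71.4 CPM in 2H-11 libraries and to between 4.21 and 6.19 CPM in SVEC4-10 libraries. All 3 that were tested were higher in 2H-11, with mean levels of 47.7 against 0.0919 CPM for Ecscr, 9.61 against 2.46 CPM for Eng and 5.40 against 0.787 CPM for Egfl7. The 11 mesothelial markers summed to between 58.5 and 72.9 CPM in 2H-11 libraries and to between 3421 and 4332 CPM in SVEC4-10 libraries. Gpm6a, Krt8, Lrrn4 and Muc16 had no count in 2H-11, and of 8 mesothelial markers tested 7 were lower and Krt19 was higher in 2H-11. The 12 fibroblast and mural markers summed to between 1837 and 2350 CPM in 2H-11 and between 2088 and 2196 CPM in SVEC4-10, with 7 of 10 tested higher, 1 lower (Dcn), and Lum and Rgs5 at 0 in both lines. Among all genes tested, 20.1% rose in 2H-11 and 16.2% fell. The 3 pan-endothelial markers, Krt19 and 5 of the 7 higher fibroblast and mural ones passed the filter on low counts through 2H-11 alone. Of the 7 lower mesothelial markers, 6 passed it through SVEC4-10 alone. Markers that passed through a single line were selected for their level there, so these marker counts are not set against the shares of all genes. The part of these cell-type differences in the Hox results was not tested, and in bulk RNA fewer expressing cells and less RNA per cell cannot be told apart.

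Of the 40 Hox rows, 33 had at least 1 count and 14 passed the filter on low counts, which asked for about 2.07 CPM in 3 libraries. In 2H-11, 6 of the 14 tested genes were higher than in SVEC4-10, 3 were lower and 5 were not called at an adjusted p under 0.05 (edgeR's quasi-likelihood test, adjusted over all 13187 genes tested). Over all genes tested, 36.2% were called, 20.1% as higher and 16.2% as lower. The genes that rose in 2H-11 were Hoxa9, Hoxb9, Hoxb13, Hoxc8, Hoxc9 and Hoxc10, all but Hoxc8 in paralog groups 9 to 13, and those that fell were Hoxa7, Hoxc13 and Hoxd8. In 10 of the 14 the 3 libraries of a line did not overlap with those of the other, 6 with 2H-11 above and 4 with 2H-11 below; over all genes tested this share was 46.8%, 28% above and 18.8% below. The median log2 fold change, 2H-11 over SVEC4-10, was 0.49 over the 14 Hox genes and 0.0025 over all genes tested. These counts are read with the filter in mind. Of the 14, 5 reached it in every library of both lines, 6 only through all libraries of 2H-11 and 3 only through all libraries of SVEC4-10. Members that passed through a single line were selected for their level there, so their calls do not stand as support. Hoxb6, which passed only through 2H-11, was nevertheless not called. Among the 5 that passed in both lines, Hoxb13 was higher, Hoxa7 was lower, and Hoxa10, Hoxb7 and Hoxc4 were not called.

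**Figure D1:**
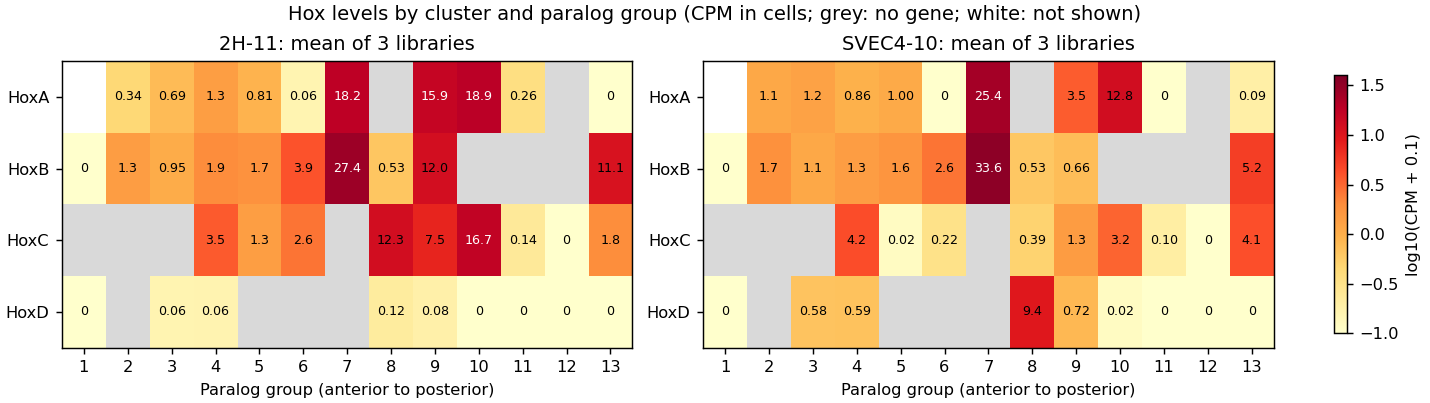
Mean CPM of each Hox gene over 3 libraries in 2H-11 (left) and SVEC4-10 (right), with clusters as rows, paralog groups 1 to 13 as columns, a log10 colour scale and grey where the mouse genome has no gene, and a cell left white is not shown; the 2 Hoxd4 identifiers are summed. The HoxD row is near 0 throughout in 2H-11 and holds Hoxd8 at 9.36 CPM in SVEC4-10, while Hoxb9, Hoxc8, Hoxc9 and Hoxc10 are darker in 2H-11.

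HoxD was near 0 throughout in 2H-11 and was expressed mainly through Hoxd8 in SVEC4-10. The cluster lies on chr2:74668310-74765142, on the plus strand of GRCm38, and spans 96.83 kb from Hoxd13 to Hoxd1. Its 10 rows summed to 0.372, 0.244 and 0.343 CPM in the 2H-11 libraries, against 11.7, 10.2 and 11.9 CPM in the SVEC4-10 libraries. Of the 287 HoxD counts in SVEC4-10, 234 came from Hoxd8, a gene of the centre of the cluster that is active in the trunk of the embryo (chr2:74704615-74707933). Hoxd8 was at 0.186, 0 and 0.172 CPM in 2H-11 and at 9.12, 9.37 and 9.58 CPM in SVEC4-10. The groups were far apart, with 2 counts in all of 2H-11 and 234 in SVEC4-10. The ratio of summed counts over summed library totals, SVEC4-10 over 2H-11, was 72.5 with a 95% exact interval of 19.8 to 602, which covers counting error only. The fitted log2 fold change was -6.06 ± 0.55 (SE, adjusted p = 7.52e-08). Hoxd8 passed the filter on low counts only through SVEC4-10, where it was high, so its call does not stand as support.

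The neighbours of Hoxd8 were too low for the test and followed the same direction in their counts. Hoxd9, the first posterior gene of the cluster, had 1 count in 2H-11 against 24 in SVEC4-10. Hoxd3, an anterior gene whose human homolog promotes migration of endothelial cells, had 1 count in 2H-11 against 16 in SVEC4-10. The second Hoxd4 identifier, ENSMUSG00000115956, had 1 count in 2H-11 against 12 in SVEC4-10, and the first, ENSMUSG00000101174, had none in any library. In a fit without the filter, in which 26.5% of 26293 genes were called, Hoxd9 (adjusted p = 0.00881) and Hoxd3 (adjusted p = 0.0458) were lower in 2H-11, while ENSMUSG00000115956 was not called (adjusted p = 0.0874). Without SVEC4-10 replicate 3, Hoxd9 and Hoxd3 each kept 4 counts in SVEC4-10 and their ratios, SVEC4-10 over 2H-11, were 7.74 each, with intervals of 0.766 to 381. Hoxd3 shares 388 exon bases on the same strand with Hoxd4 and 2225 with the gene Gm28230, so the division of reads among them is uncertain.

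The windows at the starts of Hoxd3, Hoxd8 and Hoxd9 are shown because these genes of HoxD were called lower in 2H-11. Hoxd8 was called with the filter, and Hoxd3 and Hoxd9 only without it. Hoxd4, whose counts shared the direction but were not called, is not shown. They run from 250 bases before to 50 bases after the RefSeq start on GRCm38.p6, read on the strand of the gene, 5′ to 3′. Capitals mark matches on either strand to 3 motifs. The first is AGGTCA, which nuclear receptors such as those of retinoic acid bind. The next is CCAAT, known as a box of many promoters. The last is the GC box, which is spelled GGGCGG. The TATA box, spelled TATAAA, was also searched and is in none of the windows shown. The Hoxd4 window holds 1 TATAAA, 1 AGGTCA and 2 CCAAT matches.
Hoxd3 (chr2:74711743-74712042, plus strand): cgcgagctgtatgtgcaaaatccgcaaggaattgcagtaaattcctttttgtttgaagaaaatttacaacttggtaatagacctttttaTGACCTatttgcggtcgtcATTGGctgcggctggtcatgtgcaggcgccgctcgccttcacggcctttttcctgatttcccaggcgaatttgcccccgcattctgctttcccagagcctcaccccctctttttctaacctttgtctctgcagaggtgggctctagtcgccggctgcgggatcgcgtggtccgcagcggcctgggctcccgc
Hoxd8 (chr2:74704365-74704664, plus strand): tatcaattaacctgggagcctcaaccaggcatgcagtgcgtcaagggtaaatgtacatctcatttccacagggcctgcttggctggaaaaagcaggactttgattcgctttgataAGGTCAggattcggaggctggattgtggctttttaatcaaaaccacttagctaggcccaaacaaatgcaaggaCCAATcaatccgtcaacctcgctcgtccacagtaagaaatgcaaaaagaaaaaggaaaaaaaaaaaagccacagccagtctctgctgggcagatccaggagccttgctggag
Hoxd9 (chr2:74697513-74697812, plus strand): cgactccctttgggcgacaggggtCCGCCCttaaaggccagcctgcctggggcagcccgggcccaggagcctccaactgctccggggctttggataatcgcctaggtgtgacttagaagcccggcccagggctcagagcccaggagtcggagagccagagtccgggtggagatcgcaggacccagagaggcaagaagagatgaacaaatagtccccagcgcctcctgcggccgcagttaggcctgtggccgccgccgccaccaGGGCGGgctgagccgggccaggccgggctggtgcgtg

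The Hoxd3 and Hoxd8 windows each hold 1 AGGTCA and 1 CCAAT match, and the Hoxd9 window holds 2 GGGCGG matches. In Hoxd8 these start 135 and 62 bases before the RefSeq start. RefSeq windows were given for 22 Hox symbols, in 24 windows. AGGTCA was found in 29.2% of the 24 Hox windows and in 16.3% of all 32851 windows. CCAAT was found in 62.5% of Hox windows and 37.4% of all, GGGCGG in 41.7% of Hox windows and 35.7% of all, and TATAAA in 16.7% of Hox windows and 13.6% of all. The Hoxd8 and Hoxd9 windows hold 6 and 20 CpG sites, against a median of 14.5 over the Hox windows and 7 over all windows. A match is a description of these letters and not a bound site.

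The HoxC sum was higher in every 2H-11 library than in any SVEC4-10 library. The cluster lies on chr15:102921103-103036852 on the plus strand (115.8 kb), and its 9 genes summed to 49.3, 46.8 and 41.5 CPM in 2H-11, against 19.9, 7.99 and 12.7 CPM in SVEC4-10. Of 5 tested HoxC genes Hoxc8, Hoxc9 and Hoxc10 were higher, Hoxc13 was lower and Hoxc4 was not called, against 20.1% higher and 16.2% lower over all genes tested. The 3 higher genes passed the filter only through 2H-11 and Hoxc13 only through SVEC4-10, so this count does not stand as support. Hoxc8, a gene of the thoracic part of the axis with a role in rib cartilage, was at 11.4, 15.4 and 10.1 CPM in 2H-11 and at 0.234, 0.827 and 0.119 CPM in SVEC4-10. Every 2H-11 library was above every SVEC4-10 library, with 183 counts against 6. Its log2 fold change of 5.36 ± 0.52 (SE, adjusted p = 1.75e-07) was 6.12 without SVEC4-10 replicate 2 and 4.38 without SVEC4-10 replicate 3.

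Hoxc9 and Hoxc10, the next genes towards the posterior end, rose as well, by smaller factors. Hoxc9, which in the spinal cord sets the identity of thoracic motor neurons, was at 8.19, 8.04 and 6.35 CPM in 2H-11 and at 1.40, 0.551 and 2.08 CPM in SVEC4-10, without overlap. It rose by 2.16 ± 0.39 on the log2 scale (SE, adjusted p = 0.000249), and by 2.75 without SVEC4-10 replicate 3. Hoxc10, a gene of lumbar levels and the hindlimb, was at 20.6, 15.6 and 13.9 CPM in 2H-11 and at 5.38, 1.10 and 2.98 CPM in SVEC4-10. These groups did not overlap either, and the log2 fold change was 2.31 ± 0.35 (SE, adjusted p = 4.17e-05).

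At the posterior end of HoxC the direction turned. Hoxc11 had 2 counts in 2H-11 and 2 in SVEC4-10, and Hoxc12 had none in either line. Hoxc13, which controls keratin genes of the hair follicle, was at 2.61, 1.71 and 1.20 CPM in 2H-11 and at 4.44, 3.03 and 4.82 CPM in SVEC4-10. The lines did not overlap, but the values were low. Hoxc13 fell by 1.29 on the log2 scale (SE 0.40, adjusted p = 0.0168), and the call was lost without 2H-11 replicate 2 (adjusted p = 0.0686), without 2H-11 replicate 3 (0.0632) and without SVEC4-10 replicate 3 (0.0947).

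At the anterior end of HoxC the picture differed by gene. Hoxc4, the most anterior gene of the cluster, was at 3.35, 2.92 and 4.29 CPM in 2H-11 and at 7.95, 2.48 and 2.14 CPM in SVEC4-10, where replicate 1 stood apart. The groups overlapped and the log2 fold change of -0.21 (95% interval 0.442-fold to 1.68-fold) was not called; without SVEC4-10 replicate 1 it was 0.48. Hoxc5 was at 1.12, 1.22 and 1.54 CPM in 2H-11 and at 0, 0 and 0.0595 CPM in SVEC4-10. Hoxc6, which like Hoxc5 acts at lower cervical and upper thoracic levels, was at 2.05, 1.71 and 3.95 CPM in 2H-11 and at 0.234, 0 and 0.417 CPM in SVEC4-10. Both were above SVEC4-10 in every 2H-11 library but were too low for the filter. In the fit without it, in which 14.7% of genes were higher, Hoxc5 (adjusted p = 0.000382) and Hoxc6 (adjusted p = 7.57e-05) were called higher.

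The ratio of summed counts over summed library totals, 2H-11 over SVEC4-10, was 32.3 for Hoxc5 (20 counts against 1, interval 5.16 to 1338) and 8.27 for Hoxc6 (41 against 8, interval 3.83 to 20.4). Without SVEC4-10 replicate 3, SVEC4-10 had no Hoxc5 count left. The Hoxc5 level in 2H-11 was then 3.44 times the limit of 3 counts over the remaining SVEC4-10 libraries, and the interval of its ratio started at 2.55. The Hoxc6 ratio without that library was 21.2 with an interval of 3.59 to 857. Hoxc5 and Hoxc10 share 166 exon bases on the same strand, so counts of Hoxc5 could hold reads of Hoxc10.

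**Figure D2:**
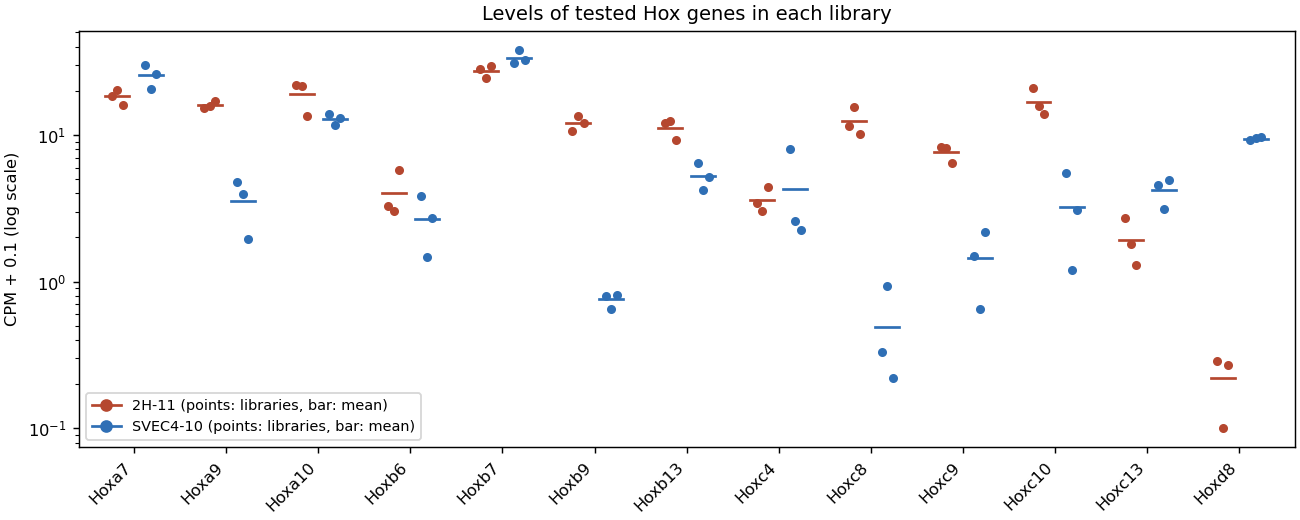
CPM + 0.1 of 13 of the 14 tested Hox genes on a log axis in each library of 2H-11 (left of each pair) and SVEC4-10 (right), with points for libraries and bars for means. Hoxb9 and Hoxc8 are higher in every 2H-11 library, Hoxd8 is higher in every SVEC4-10 library, and Hoxa10, Hoxb6 and Hoxc4 overlap.

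HoxA totals overlapped between the lines, while Hoxa9 on its posterior side rose. The cluster lies on chromosome 6 on the minus strand, and its 11 genes summed to 60.3, 63.1 and 51.2 CPM in 2H-11, against 55.6, 41.3 and 47.4 CPM in SVEC4-10. Hoxa9, a gene of thoracic to lumbar levels with known roles in blood stem cells and in leukaemia, was at 15.3, 15.6 and 16.8 CPM in 2H-11 and at 4.67, 3.86 and 1.85 CPM in SVEC4-10. Every 2H-11 library was above every SVEC4-10 library. Hoxa9 rose by 2.27 ± 0.34 on the log2 scale (SE, adjusted p = 3.06e-05), a 4.81-fold difference.

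The start window of Hoxa9 is shown as the only RefSeq window given for a gene that rose in 2H-11. It was read on the minus strand of GRCm38.p6, and capitals mark its GC box, which starts 103 bases before the start.
Hoxa9 (chr6:52227321-52227620, minus strand): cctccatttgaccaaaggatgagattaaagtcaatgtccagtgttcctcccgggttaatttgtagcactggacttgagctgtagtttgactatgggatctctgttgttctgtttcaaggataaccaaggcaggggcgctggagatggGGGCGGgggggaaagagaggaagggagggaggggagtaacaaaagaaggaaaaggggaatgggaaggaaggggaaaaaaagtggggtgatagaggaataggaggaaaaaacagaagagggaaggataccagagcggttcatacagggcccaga
It holds 4 CpG sites and no match to the other motifs.

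Hoxa10, next to Hoxa9 and known for its role in the uterus and lumbar spine, was at 21.9, 21.4 and 13.4 CPM in 2H-11 and at 13.8, 11.6 and 13.04 CPM in SVEC4-10. The lowest 2H-11 library overlapped with SVEC4-10, and the log2 fold change of 0.46 was not called (adjusted p = 0.162, 95% interval 0.958-fold to 1.97-fold); without 2H-11 replicate 3 it was called (adjusted p = 0.0465). Hoxa7, a central gene, was at 18.4, 20.2 and 16.0 CPM in 2H-11 and at 29.9, 20.4 and 25.8 CPM in SVEC4-10. The lines did not overlap, but the highest 2H-11 library and the lowest SVEC4-10 library nearly met. Hoxa7 fell by 0.58 on the log2 scale (SE 0.22, adjusted p = 0.0479), and the call was lost without any of 5 of the 6 libraries, with adjusted p of 0.0805, 0.0925 and 0.106 without 2H-11 replicates 1, 2 and 3 and of 0.104 and 0.0877 without SVEC4-10 replicates 1 and 3.

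The anterior HoxA genes were low in both lines. Hoxa2, which gives the second pharyngeal arch its identity, was at 0.186, 0.487 and 0.343 CPM in 2H-11 and at 1.40, 0.276 and 1.49 CPM in SVEC4-10. Its SVEC4-10 replicate 2 lay within the 2H-11 range. The fit without the filter, in which 11.9% of genes were lower, called it lower (adjusted p = 0.0425), but without SVEC4-10 replicate 3 the ratio of SVEC4-10 over 2H-11 was 2.71 with an interval of 0.740 to 10.8.

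Hoxa3, needed for the thymus and parathyroid, was at 0.558, 0.487 and 1.03 CPM in 2H-11 and at 1.40, 1.38 and 0.774 CPM in SVEC4-10. Hoxa4, of cervical levels, was at 1.12, 1.71 and 1.03 CPM in 2H-11 and at 1.40, 0.276 and 0.893 CPM in SVEC4-10. Both overlapped between the lines and neither was called in the fit without the filter (adjusted p = 0.466 and 0.735). Hoxa5, with a role in lung development, had 13 counts in 2H-11 and 24 in SVEC4-10. Of the remaining HoxA genes, Hoxa6 had 1 count in 2H-11 against 0 in SVEC4-10, Hoxa11 4 in 2H-11 and 0 in SVEC4-10, and Hoxa13, a gene of the digits and genital tubercle, 0 in 2H-11 and 1 in SVEC4-10.

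HoxB carried the most abundant Hox gene of both lines, and its tested posterior genes, Hoxb9 and Hoxb13, were higher in 2H-11. The cluster lies on chr11:96194316-96368256 on the plus strand (173.9 kb). Its 10 genes summed to 59.9, 59.9 and 62.6 CPM in 2H-11, against 47.0, 50.2 and 47.3 CPM in SVEC4-10, without overlap. Hoxb7, a central gene studied in human tumors as an inducer of angiogenic factors, was at 28.3, 24.4 and 29.5 CPM in 2H-11 and at 30.6, 37.8 and 32.3 CPM in SVEC4-10. The libraries of the lines did not overlap, yet the log2 fold change of -0.38 was not called (adjusted p = 0.172, 95% interval 0.564-fold to 1.04-fold).

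Hoxb9, 1 of the 3 group 9 genes that rose, was at 10.6, 13.4 and 12.0 CPM in 2H-11 and at 0.701, 0.551 and 0.714 CPM in SVEC4-10. The lines were well apart in every library, with 182 counts against 17. Hoxb9, which together with its paralogs patterns the thoracic skeleton and the mammary gland, rose by 4.01 ± 0.38 on the log2 scale (SE, adjusted p = 1.26e-07), a 16.1-fold difference. Hoxb13, the most posterior gene of the cluster and known for its role in the prostate, was at 11.9, 12.4 and 9.10 CPM in 2H-11 and at 6.31, 4.13 and 5.06 CPM in SVEC4-10. It lies 74.0 kb from Hoxb9 with no other Hox gene between them. The lines did not overlap and Hoxb13 rose by 1.01 ± 0.29 on the log2 scale (SE, adjusted p = 0.00951); without 2H-11 replicate 2 the adjusted p was 0.0563.

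Anterior and central HoxB genes other than Hoxb7 were low in both lines. Hoxb6 was at 3.16, 2.92 and 5.66 CPM in 2H-11 and at 3.74, 1.38 and 2.62 CPM in SVEC4-10. The groups overlapped, and the log2 fold change of 0.52 was not called (adjusted p = 0.351). Hoxb2, with a role in facial motor neurons, was at 1.30, 1.46 and 1.20 CPM in 2H-11 and at 1.64, 1.93 and 1.61 CPM in SVEC4-10, which did not overlap. Hoxb3, of the hindbrain, was at 0.930, 0.731 and 1.20 CPM in 2H-11 and at 1.17, 0.827 and 1.19 CPM in SVEC4-10.

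The Hoxb3 ranges largely coincided. Hoxb4, known for expanding blood stem cells, was at 2.05, 2.19 and 1.37 CPM in 2H-11 and at 0.701, 1.38 and 1.90 CPM in SVEC4-10. Hoxb5, with a role in enteric neural crest, was at 1.49, 1.71 and 1.89 CPM in 2H-11 and at 0.701, 2.21 and 1.79 CPM in SVEC4-10. Both overlapped. None of Hoxb2, Hoxb3, Hoxb4 and Hoxb5 was called in the fit without the filter (adjusted p = 0.516, 0.728, 0.863 and 0.920). Hoxb8 had 8 counts in 2H-11 and 9 in SVEC4-10, of which 6 were in replicate 1, and Hoxb1, the hindbrain gene at the anterior end, had no count.

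**Figure D3:**
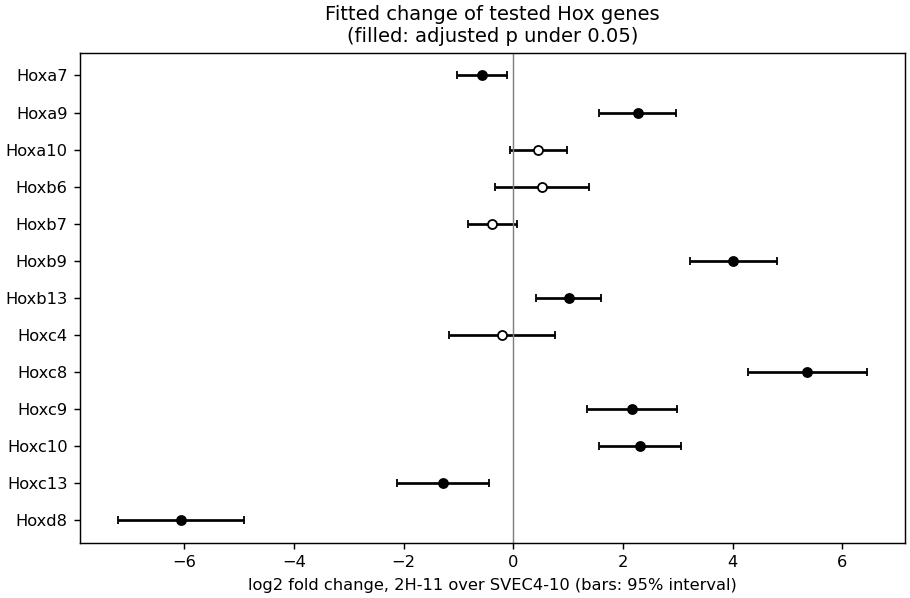
Fitted log2 fold change, 2H-11 over SVEC4-10, of 13 of the 14 tested Hox genes with 95% intervals, in cluster and paralog order; filled points had an adjusted p under 0.05 (edgeR's quasi-likelihood test). Intervals of Hoxa10, Hoxb6, Hoxb7 and Hoxc4 cross 0, and Hoxc8 (5.36) and Hoxd8 (-6.06) lie at the ends.

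Read across clusters, the posterior genes made up more of the Hox RNA in 2H-11. The genes of paralog groups 9 to 13 summed to 91.4, 88.9 and 73.3 CPM in 2H-11, against 37.6, 25.4 and 31.9 CPM in SVEC4-10, and 5 of their 7 tested members were higher and 1 lower, against 20.1% and 16.2% over all genes tested. Of these, Hoxa9, Hoxb9, Hoxc9 and Hoxc10 passed the filter only through 2H-11 and Hoxc13 only through SVEC4-10. Each was thus selected for its level in that line, and their calls do not stand as support. Groups 4 to 8 summed to 73.7, 75.5 and 77.6 CPM in 2H-11, against 88.3, 77.2 and 79.0 CPM in SVEC4-10, which overlapped, with 1 of 6 tested members higher and 2 lower. Groups 1 to 3 summed to 4.84, 5.60 and 4.81 CPM in 2H-11, against 8.18, 7.17 and 8.39 CPM in SVEC4-10, without overlap. As shares of the summed Hox CPM, posterior genes held 51.1% ± 3.52 in 2H-11 and 26.0% ± 2.54 in SVEC4-10 (SD, n = 3 each). The anterior share was 3.08% ± 0.22 in 2H-11 and 6.56% ± 0.47 in SVEC4-10. Summed over all members, Hox RNA reached 165 ± 8.23 CPM in 2H-11, against 121 ± 12.3 in SVEC4-10 (SD, n = 3 each). No p is given for these sums, since they add the members already tested.

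**Figure D4:**
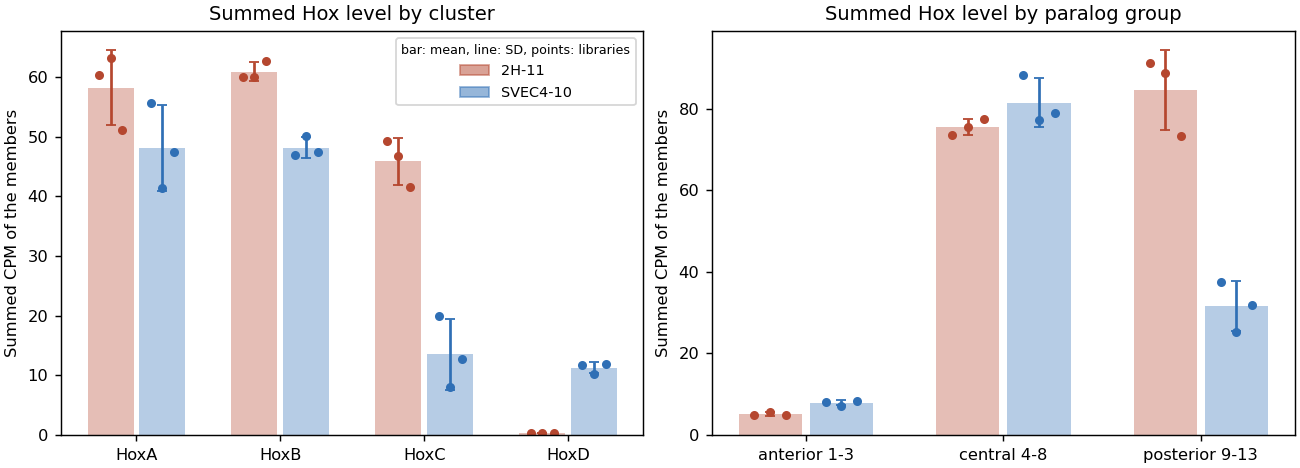
Summed CPM of the Hox genes of each cluster (left) and of paralog groups 1 to 3, 4 to 8 and 9 to 13 (right) in 2H-11 and SVEC4-10, 2H-11 first in each pair; bars are means, lines SDs and points the 3 libraries. HoxB, HoxC and the posterior groups are higher in 2H-11 in every library, and HoxD is higher in SVEC4-10 in every library.

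Paralogs of a group did not all move together. In group 9, all 3 tested members (Hoxa9, Hoxb9 and Hoxc9) rose in 2H-11, against 20.1% of all genes tested. These 3 passed the filter on low counts only through 2H-11, where they were high, so their shared direction does not stand as support. Hoxd9 had 1 count in 2H-11 against 24 in SVEC4-10. The group summed to 35.5 ± 1.63 CPM in 2H-11, against 6.18 ± 1.16 in SVEC4-10 (SD, n = 3 each). In group 8, Hoxc8 rose and Hoxd8 fell, and the group sums were 12.9 ± 2.75 CPM in 2H-11 and 10.3 ± 0.44 in SVEC4-10. In group 10, Hoxc10 rose, Hoxa10 was not called, and Hoxd10 had 0 counts in 2H-11 and 1 in SVEC4-10. In group 13, Hoxb13 rose, Hoxc13 fell, Hoxa13 had 0 counts in 2H-11 and 1 in SVEC4-10, and Hoxd13 had none. Group 7 was the most abundant in both lines, with 45.6 ± 1.06 CPM in 2H-11, against 58.9 ± 1.41 in SVEC4-10. Group 12 had no count in either line.

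Silent stretches were described by the genes with no count over the libraries of a line. Each line had 9 such rows, and 7 were shared: Hoxb1, Hoxc12, Hoxd1, the first Hoxd4 identifier, Hoxd11, Hoxd12 and Hoxd13. At this depth 0 counts allow levels of up to 0.196 CPM for 2H-11 and up to 0.121 for SVEC4-10, taking 3 counts over the summed total. In 2H-11 the longest run without a count was Hoxd10 to Hoxd13, with 4 genes, and Hoxa13 was also at 0. In SVEC4-10 it was Hoxd11 to Hoxd13, with 3 genes, and Hoxa6 and Hoxa11 were also at 0. Hoxd10, whose human homolog restrains endothelial migration, had its 1 SVEC4-10 count in replicate 3, and without that library the run there was Hoxd10 to Hoxd13 with 4 genes.

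Counting genes with 3 counts or fewer as silent extended the difference. In 2H-11 the run then covered all of HoxD, from Hoxd1 to Hoxd13 (9 genes). Hoxc11 and Hoxc12 formed a run in both lines. In SVEC4-10 the HoxD run covered Hoxd10 to Hoxd13, Hoxa11 and Hoxa13 formed a run at the posterior end of HoxA, and Hoxa6 and Hoxc5 were silent singly. With every library thinned to 3628400 counts, no 2H-11 count was left from Hoxd8 to Hoxd13 (6 genes), and the SVEC4-10 run was Hoxd10 to Hoxd13. Hoxc11 and Hoxc12 were low in both lines, between Hoxc10 and Hoxc13 with their larger counts.

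The order of the Hox genes by level was led by Hoxb7 in both lines. Ranked by mean CPM, which counts molecules as direct RNA reads give 1 read per molecule, the next genes were Hoxa10, Hoxa7, Hoxc10, Hoxa9, Hoxc8, Hoxb9 and Hoxb13 in 2H-11, and Hoxa7, Hoxa10, Hoxd8, Hoxb13, Hoxc4, Hoxc13 and Hoxa9 in SVEC4-10. Per kilobase of the longest GENCODE transcript, Hoxb7 was at 21.2 CPM per kb in 2H-11, ahead of Hoxa7 at 8.96, Hoxc10 at 8.76 and Hoxa10 at 7.38 CPM per kb. In SVEC4-10 the level of Hoxb7 was 26.0 CPM per kb, that of Hoxa7 12.5, of Hoxa10 4.99 and of Hoxd8 3.55 CPM per kb. In 2H-11, Hoxa7, Hoxa10 and Hoxc10 had overlapping CPM ranges, so their order there lies within the spread between libraries.

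The authors' deposited table gave an adjusted p for 22 of the 40 rows. In it, 8 Hox genes were higher in 2H-11 and 3 lower at an adjusted p under 0.05, all 9 genes called here among them. The others were Hoxc5 (log2 fold change 2.94, adjusted p = 0.00309) and Hoxc6 (2.51, adjusted p = 0.00177) in the authors' deposited DESeq2 columns. Those columns rest on the same libraries, so the shared calls are not independent support. The share of all genes called in that table is not given here, so the Hox count is not read against it.

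RNA of the TALE homeodomain proteins, the DNA-binding partners of Hox proteins, was counted in both lines, with the largest fold changes in Pknox2 and Tgif2. All 11 genes of the list were tested; 4 were higher and 2 lower in 2H-11 (54.5% called, against 36.2% of all genes tested). Pknox2 and Tgif2 passed the filter only through 2H-11 and Pbx4 only through SVEC4-10. Each was thus selected for its level in that line, and their calls do not stand as support. In the test against a 2-fold change, 2 genes of the list were higher and 0 lower in 2H-11. Of the 13187 genes tested, 1134 were higher and 671 lower in that test. Pknox2, of the Prep family, was at 8.74, 6.82 and 6.35 CPM in 2H-11 and at 0.234, 0 and 0.179 CPM in SVEC4-10. The lines were far apart and Pknox2 rose by 5.27 ± 0.53 on the log2 scale (SE, adjusted p = 3.20e-07). Tgif2, a TALE repressor, was at 3.35, 2.44 and 2.23 CPM in 2H-11 and at 0.468, 0 and 0.595 CPM in SVEC4-10. It rose by 2.40 ± 0.52 (SE, adjusted p = 0.00130), and by 3.16 without SVEC4-10 replicate 3.

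Meis2, which forms complexes with Pbx and Hox proteins, was at 8.37, 6.82 and 6.35 CPM in 2H-11 and at 16.8, 8.82 and 13.2 CPM in SVEC4-10. It fell by 0.94 on the log2 scale (SE 0.28, adjusted p = 0.0130; 0.0505 without 2H-11 replicate 2). Pbx4 was at 3.35, 1.46 and 1.54 CPM in 2H-11 and at 7.48, 3.31 and 4.35 CPM in SVEC4-10. These overlapped by a narrow margin, and Pbx4 fell by 1.30 on the log2 scale (adjusted p = 0.0216), a call lost without 2H-11 replicate 2 (0.0925), 2H-11 replicate 3 (0.0685) or SVEC4-10 replicate 1 (0.0907). The remaining pair of called genes, named here after their values were seen, was Pbx3 (adjusted p = 0.0221) and Meis1 (adjusted p = 0.0279). Both rose, and each call was lost without any of several libraries: Pbx3 without 2H-11 replicate 3 (0.0528) or SVEC4-10 replicates 1 and 2 (0.0951 and 0.0751), and Meis1 without 2H-11 replicates 1 and 2 (0.105 and 0.0824) or SVEC4-10 replicates 2 and 3 (0.0975 and 0.105). Meis3, Pbx2, Pknox1 and Tgif1 were not called.

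**Figure D5:**
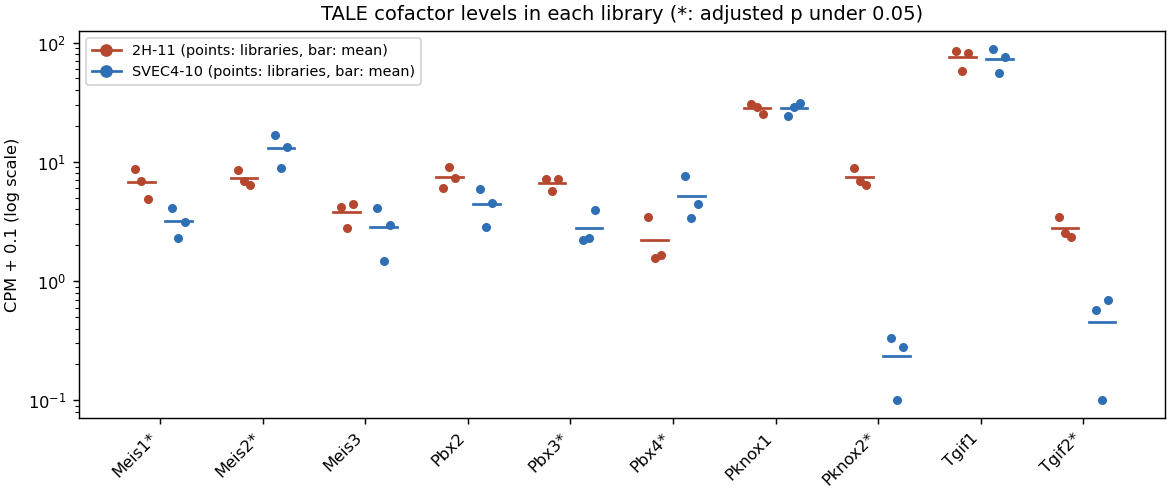
CPM + 0.1 on a log axis of 10 of the 11 TALE cofactor genes in each library of 2H-11 (left of each pair) and SVEC4-10 (right); bars are means and an asterisk marks an adjusted p under 0.05. Pknox2 and Tgif2 are higher in every 2H-11 library, while Pknox1 and Tgif1 lie at like levels in the lines.

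Among genes of the chromatin complexes that hold Hox clusters silent or active, Phf19, Cbx7, Pcgf5 and Ash2l had the lowest adjusted p. Phf19 and Cbx7 passed the filter on low counts only through 2H-11, where they were high, so their calls do not stand as support. Of 11 genes of Polycomb repressive complex 2, 1 was higher and 1 lower (18.2% called, against 36.2% of all genes tested). Phf19, an accessory subunit that reads methylated histone H3, averaged 12.0 ± 2.94 CPM in 2H-11 and 0.255 ± 0.237 in SVEC4-10 (SD, n = 3 each) and rose by 5.24 on the log2 scale (adjusted p = 1.02e-07). Eed, a core subunit, averaged 49.0 ± 8.56 CPM in 2H-11 and 71.0 ± 10.3 in SVEC4-10 and fell by 0.64 (adjusted p = 0.0196; 0.0646 without 2H-11 replicate 3 and 0.0647 without SVEC4-10 replicate 2). Ezh1 and Rbbp7, the next by p, were not called (adjusted p = 0.308 and 0.316).

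Of 18 genes of Polycomb repressive complex 1, 2 were higher and 2 lower in 2H-11 (22.2% called, against 36.2%). Cbx7, a subunit that binds trimethylated H3K27, averaged 4.27 ± 0.70 CPM in 2H-11 and 0.347 ± 0.105 in SVEC4-10 and rose by 3.54 on the log2 scale (adjusted p = 9.97e-06). Pcgf5, of the variant complexes, averaged 10.1 ± 2.43 CPM in 2H-11 and 28.9 ± 2.95 in SVEC4-10 and fell by 1.59 (adjusted p = 4.49e-05). Cbx6 rose by 0.77 (adjusted p = 0.0232), a call lost without 2H-11 replicate 3 (0.113) or SVEC4-10 replicates 2 and 3 (0.128 and 0.0569).

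Of 12 Trithorax and H3K27 demethylase genes, 2 were higher and 1 lower (25% called, against 36.2%). Ash2l, a core subunit of the H3K4 methyltransferases, averaged 41.4 ± 4.57 CPM in 2H-11 and 17.6 ± 2.39 in SVEC4-10 (SD, n = 3 each) and rose by 1.13 on the log2 scale (adjusted p = 0.000331). Dpy30, of the same core, rose by 0.51 (adjusted p = 0.0242), and its adjusted p was 0.0926 and 0.0640 without 2H-11 replicates 2 and 3 and 0.146 and 0.0528 without SVEC4-10 replicates 1 and 2. Kdm6a, an H3K27 demethylase, fell by 0.90 (adjusted p = 0.0259; 0.0739 without 2H-11 replicate 2 and 0.0656 without SVEC4-10 replicate 2). Kmt2c was not called (adjusted p = 0.162).

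Of 8 genes of CTCF and cohesin, which fold the clusters into domains, 1 was called (12.5%, against 36.2%). Smc3, a cohesin ring subunit, averaged 117 ± 39.0 CPM in 2H-11 and 164 ± 9.55 in SVEC4-10 and fell by 0.60 on the log2 scale (adjusted p = 0.0337), a call lost without 2H-11 replicate 3 (0.129) or SVEC4-10 replicates 2 and 3 (0.0527 and 0.0827). Stag2, Stag1 and Rad21 were not called (adjusted p = 0.0655, 0.167 and 0.200).

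Among 14 genes of the signals upstream of Hox genes, 6 were tested and Aldh1a1 stood out. Aldh1a1, which makes retinoic acid from retinaldehyde, averaged 1.35 ± 0.34 CPM in 2H-11 and 1279 ± 87.5 in SVEC4-10 (SD, n = 3 each), and its log2 fold change was -10.0 (adjusted p = 6.36e-15). It passed the filter on low counts only through SVEC4-10, where it was high, so its call does not stand as support. Rxra, a partner of retinoic acid receptors, averaged 9.78 ± 2.29 CPM in 2H-11 and 4.22 ± 1.69 in SVEC4-10 and rose by 1.11 (adjusted p = 0.0116; 0.0540 without SVEC4-10 replicate 2). Rarg and Gdf11 were not called (adjusted p = 0.323 and 0.504), and Aldh1a2 had no count. All 8 ParaHox, Cdx and Evx genes, relatives of Hox genes that include the neighbours Evx1 and Evx2 of the HoxA and HoxD clusters, had no count in either line. The 17 antisense and other noncoding genes of the clusters on the list, such as Hotair and Hottip, were not analysed here.

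Among the non-Hox genes on either side of the clusters, Skap2, Lnpk and Cbx5 were called. Of 25 listed, 23 were found and 18 tested, with 1 higher and 2 lower in 2H-11 (16.7% called, against 36.2% of all genes tested). Skap2, beside HoxA, averaged 60.8 ± 5.80 CPM in 2H-11 and 89.7 ± 12.8 in SVEC4-10 (SD, n = 3 each) and fell by 0.65 on the log2 scale (adjusted p = 0.0101). Lnpk, beyond the posterior end of HoxD, averaged 22.4 ± 9.06 CPM in 2H-11 and 35.9 ± 5.09 in SVEC4-10 and fell by 0.79 (adjusted p = 0.0280), a call lost without 2H-11 replicate 3 (0.101) or SVEC4-10 replicates 2 and 3 (0.0816 and 0.0553). Cbx5, beside HoxC, rose by 0.55 (adjusted p = 0.0219), and the call was lost without any library other than 2H-11 replicate 3, with adjusted p of 0.0818 and 0.153 without 2H-11 replicates 1 and 2 and of 0.102, 0.0568 and 0.0625 without SVEC4-10 replicates 1, 2 and 3. Atf2, near HoxD, was not called (adjusted p = 0.0831). Mtx2, beyond the anterior end of HoxD and named here after its values were seen, averaged 10.2 ± 4.18 CPM in 2H-11 and 14.7 ± 2.66 in SVEC4-10 and was not called (adjusted p = 0.114).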

How the data were processed

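RNA of 3 libraries of 2H-11 and 3 of SVEC4-10 was sequenced with the direct RNA kit, per the labels' protocols. The authors deposited whole-number read counts per gene, CPM (each count over its library total) and the columns of a DESeq2 comparison, per the file headers. The builds mm10 and GRCm38 come from the submitters' processing notes; for the aligner, annotation, counting and use of strand, the sources used here name nothing. The sign of the authors' log2 fold change was read as 2H-11 over SVEC4-10 from their CPM. Of the table, 13 lines without a gene were left out, which left 34724 genes (22036 with Ensembl identifiers).

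Counts were tested on the whole table with edgeR 4.0.16 (filterByExpr with a minimum count of 10 and a minimum total of 15, TMM scaling, quasi-likelihood test, line as the only term), with Benjamini-Hochberg adjustment over 13187 genes and a threshold of 0.05. The SE of an edgeR log2 fold change was worked back from the fold change and its quasi-likelihood p through a t distribution. It was not estimated directly, and the 95% intervals of fitted changes rest on it. The script was tested on simulated counts. DESeq2 1.42.0, limma 3.58.1 (voom), other scalings and filters, thinning, a test against a 2-fold change, the replicate number as a block and leaving out each library were alternatives. Ratios of summed counts have 95% exact intervals, which, like the limits for 0 counts, cover counting error only. Positions and transcript lengths came from GENCODE for GRCm38, and start windows from RefSeq on GRCm38.p6. Members at a mean of 1 CPM or more in either line were described library by library, and of each other list the 4 genes with the smallest p (the most abundant where fewer were tested). Members and lists were chosen with earlier results of these data known. Of the Hox symbols, 9 share exon bases with another gene on the same strand and 10 with a gene on the opposite strand, so their counts are uncertain to that extent. Results for some genes are not reported here.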

Additional observations from a re-analysis of the deposited data

How the results depend on the processing

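Of the 9 Hox genes called, 6 kept their call under all 16 alternatives: Hoxa9, Hoxb9, Hoxc8, Hoxc9 and Hoxc10 as higher and Hoxd8 as lower. Each of these 6 passed the filter on low counts only through the line where it was high, so the kept calls do not stand as support. Hoxa7 and Hoxb13, the called genes that passed in both lines, did not keep their calls throughout. The count of higher Hox genes lay between 5 (test against a 2-fold change) and 8 (no filter), against 6. The count of lower ones, 3, was 6 without a filter and 1 with at least 20 counts in 3 libraries, with thinned libraries and in the test against a 2-fold change, and leaving out each library in turn gave 1 to 3. Hoxa7 lost its call under 11 alternatives, Hoxc13 under 6 and Hoxb13 under 2. Hoxc4, not called, reversed to 0.13 on the log2 scale with limma-voom, and leaving out each library in turn gave -0.68 to 0.48, the highest without SVEC4-10 replicate 1. Over all genes, 2645 were higher and 2133 lower; 1657 were higher with Ensembl identifiers only, and 1134 higher and 671 lower in the test against a 2-fold change. Library totals alone put the median change of all genes at 0.099 on the log2 scale. Hox genes with no count in 2H-11 numbered 9, and 15 at 3 counts or fewer. Replicate numbers did not pair the libraries (correlations of deviations -0.018, 0.051 and -0.0026); with the replicate block 6 Hox genes were higher and 2 lower, and 2491 and 1970 of all genes. Of 352 counts for the other lists, 285 stayed within 1.5 times and 67 did not. Except where the construction of an alternative shows it, the cause was not tested. Depth limits the members under the filter, and 68.0% of the SVEC4-10 counts came from replicate 3.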

Other observations

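Outside the Hox clusters, Prrx1, Prrx2, Tbx3, Pitx1 and Tbx18 were among the genes of regional identity that differed between the lines. Of 34 listed homeobox and T-box genes, 14 had no count in any library and 8 were tested, of which 5 were higher and 1 lower in 2H-11, against 20.1% and 16.2% over all genes tested. The 5 passed the filter on low counts only through 2H-11 and the 1 only through SVEC4-10. Each was thus selected for its level in that line, and their number supports no direction for the list. Prrx1, a gene of limb and craniofacial mesenchyme, was at 13.9, 17.5 and 10.8 CPM in 2H-11 and at 0.468, 0.276 and 0.179 CPM in SVEC4-10, and rose by 5.61 ± 0.46 on the log2 scale (SE, edgeR's quasi-likelihood test, adjusted p = 2.07e-08), or by 4.99 without SVEC4-10 replicate 3. Tbx3, a T-box gene of limb and mammary gland, had 62 counts in 2H-11 and 0 in SVEC4-10, and Pitx1, which gives the hindlimb its identity, had 51 and 0. Taking 3 counts over the line as the limit, they were at least 33.4-fold and 27.4-fold higher in 2H-11. The hindlimb gene Tbx4 and the forelimb gene Tbx5 had no count in either line. Prrx2 was also higher (adjusted p = 9.24e-05; 0.00140 without SVEC4-10 replicate 3, where its log2 fold change was 4.43 against 3.37 with all libraries). The 1 lower gene was Tbx18, named like Prrx2 after its values were seen, a gene of mesothelium and epicardium, at 0.930, 2.19 and 1.55 CPM in 2H-11 and at 5.14, 5.51 and 7.20 CPM in SVEC4-10 (log2 fold change -2.08, adjusted p = 0.000455). The part of the mesothelial and fibroblast marker differences between the lines in these values was not tested.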
